A study of Mus musculus with 19 samples.

Results

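Regorafenib was set against no regorafenib in 16 of the 19 oral tumour libraries of the series, with anti-PD1 given or not as the second factor of the model. The members were taken from the treatment in the sample titles: 9 libraries with regorafenib (4 on regorafenib alone and 5 on the combination with anti-PD1) and 7 without it (3 on anti-PD1 alone and 4 on vehicle). All came from C57BL/6J mice that were 6 weeks old when they began to drink 4-nitroquinoline 1-oxide (4NQO), at 100 µg/ml and for 10 weeks, so every group carries the carcinogen. Regorafenib was given at 5 mg/kg per day, with no separate dose stated for the combination and no dose of anti-PD1. The 3 anti-CD40 libraries stayed out of every test. Of 16797 genes tested, 175 were called in the regorafenib main effect, where called means an adjusted p under 0.05 in edgeR's quasi-likelihood test.

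4NQO is a DNA-damaging carcinogen that drives squamous cell carcinoma of the tongue and mouth. Regorafenib is a small molecule taken by mouth that inhibits the receptors for VEGF, PDGF and FGF and the kinases KIT, RET, RAF and TIE2, and it is known chiefly for blocking the growth of blood vessels. Antibodies to PD1 block an inhibitory receptor on T cells. Oral squamous epithelium renews itself from a basal layer held to the basement membrane by integrins, and its cells are joined by desmosomes and gap junctions.

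Libraries held 16776177 to 24969492 counts. The tested genes were 99.91% of the counts. Keratins of oral epithelium were abundant, with Krt13 at 28105 ± 2458 CPM in the 9 libraries with regorafenib and 27127 ± 2448 CPM in the 7 without, and so were genes of skeletal muscle, with Myh4, a fast myosin heavy chain, at 9474 ± 2034 and 11165 ± 1164 CPM (CPM of TMM-scaled counts, mean ± SD). The pieces therefore held muscle as well as tumour, and in bulk RNA fewer cells of a type and less RNA per cell cannot be told apart. Of the variance in the 500 most variable genes, 55.5% lay on the first principal component, and whether regorafenib was given accounted for 2.45% of that component. It accounted for 11.2% of component 2, 52.1% of component 3 and 0.0596% of component 4. Those components held 17.1%, 7.74% and 5.36% of the variance. The 5 called genes of the stomach and pancreas list were high in the 4 regorafenib-alone libraries and near 0 in the other 12, as described with those genes. The labels do not say that samples came from separate animals, so the p-values refer to the spread among the samples at hand.

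With regorafenib, 144 genes were higher and 31 lower (0.857% and 0.185% of the tested genes, 1.04% in all). Most changes were small: the median size over the called genes was 0.36 on the log2 scale. 15 genes were higher by at least 2-fold. The 2 that were lower by that much were the cardiac-type calcium channel gene Ryr2 and the complement gene C6, both under 1 CPM at their median. At an unadjusted p under 0.05 there were 3221 genes, where 840 would be expected if none differed. The number of calls moved widely with single libraries: 18 of the 175 genes were called whichever library was left out, and 129 were called in 8 or fewer of those 16 runs. None changed sign in a run that tested it (173 were tested in all 16), which the choice of genes by adjusted p largely fixes. With the skeletal muscle score of each library as a covariate, 6 genes were called higher and 3 lower. All 175 genes kept their sign there, which the same choice largely fixes, and the median size was 0.31.

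**Figure D1:**
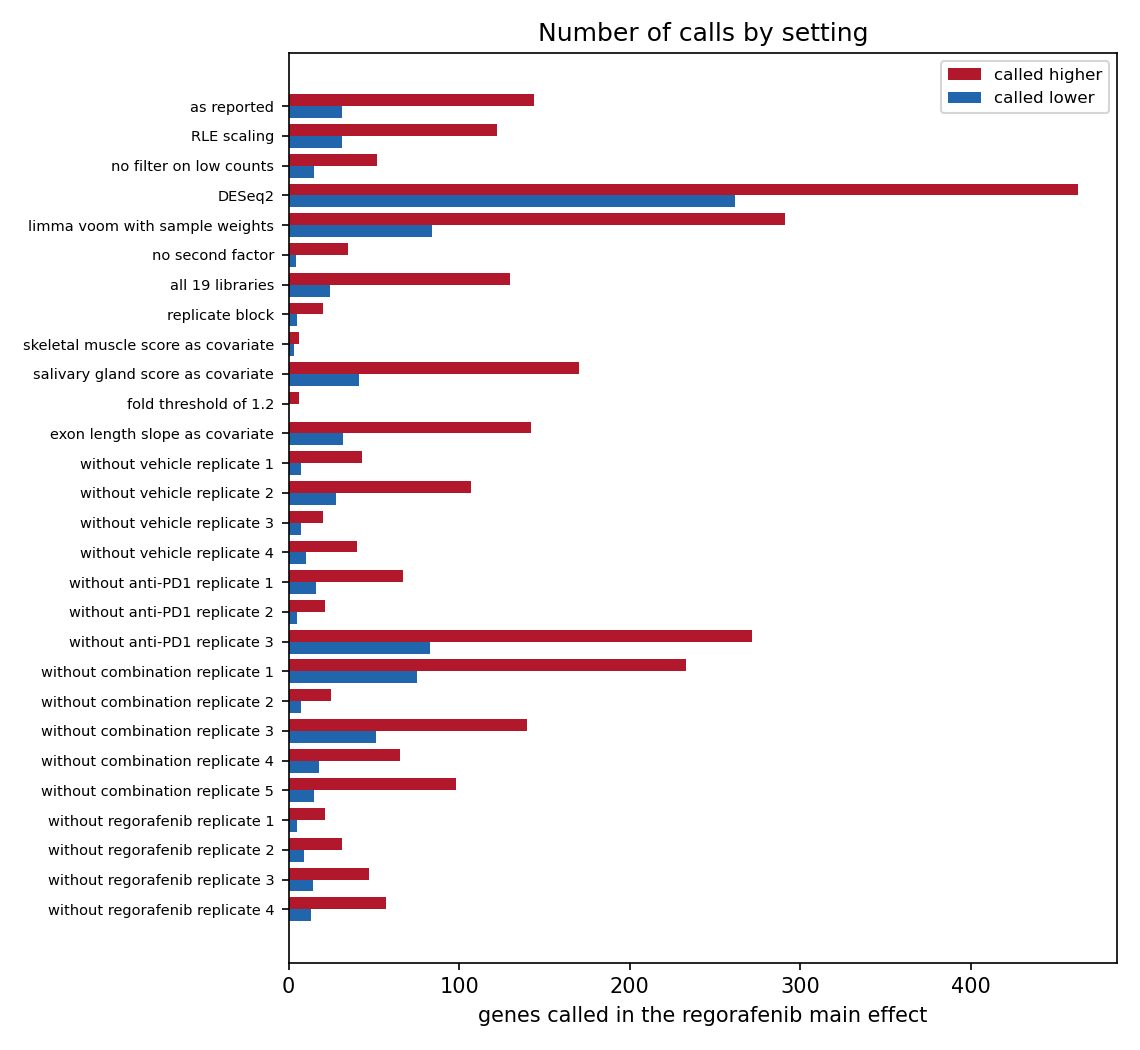
Number of genes called higher (red) and lower (blue) in the regorafenib main effect, on the x axis, for the reported fit (144 and 31), 11 other settings and the 16 fits that each leave out 1 library. The counts run from 6 with the muscle score as a covariate to 463 with DESeq2 for higher genes, and from 0 with a fold threshold of 1.2 to 262 for lower genes.

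The main effect pools a pair of strata that share no library. Regorafenib against vehicle gave 697 higher and 682 lower genes (4.15% and 4.06%, or 8.21% called). The combination against anti-PD1 gave 0 calls in edgeR (smallest adjusted p 0.0525, 1824 genes at an unadjusted p under 0.05), 120 in DESeq2 and 11 with no filter on low counts. The difference between the strata, tested as an interaction, was called for 123 genes (0.732%), 91 of them higher with anti-PD1 (0.542%) and 32 lower (0.191%). Among the 1379 genes called without anti-PD1, 53.4% had the same direction with anti-PD1, near the 53.2% of all tested genes. For the 697 higher genes it was 62.6% and for the 682 lower genes 44%. Of all tested genes, 49.2% were higher in the combination than in anti-PD1. Across the 16797 genes the log2 changes of the strata had a Pearson r of -0.092 and a Spearman rho of 0.079, given as a description since genes are not independent.

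Of the 175 genes, 171 had the same sign in both strata, which the choice of genes by the pooled effect partly fixes. The other 4 were the stomach and pancreas genes Pgc, Clps, Pla2g1b and Gkn2. Their sizes were smaller with anti-PD1: the median log2 change of the 144 higher genes was 0.28 for the combination over anti-PD1 and 0.40 for regorafenib over vehicle, and that of the 31 lower genes was -0.34 and -0.42. Of the 175, 0 were also called with anti-PD1 by edgeR and 126 without it, and 1, the glycolytic gene Pgam1, was called in the interaction.

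**Figure D2:**
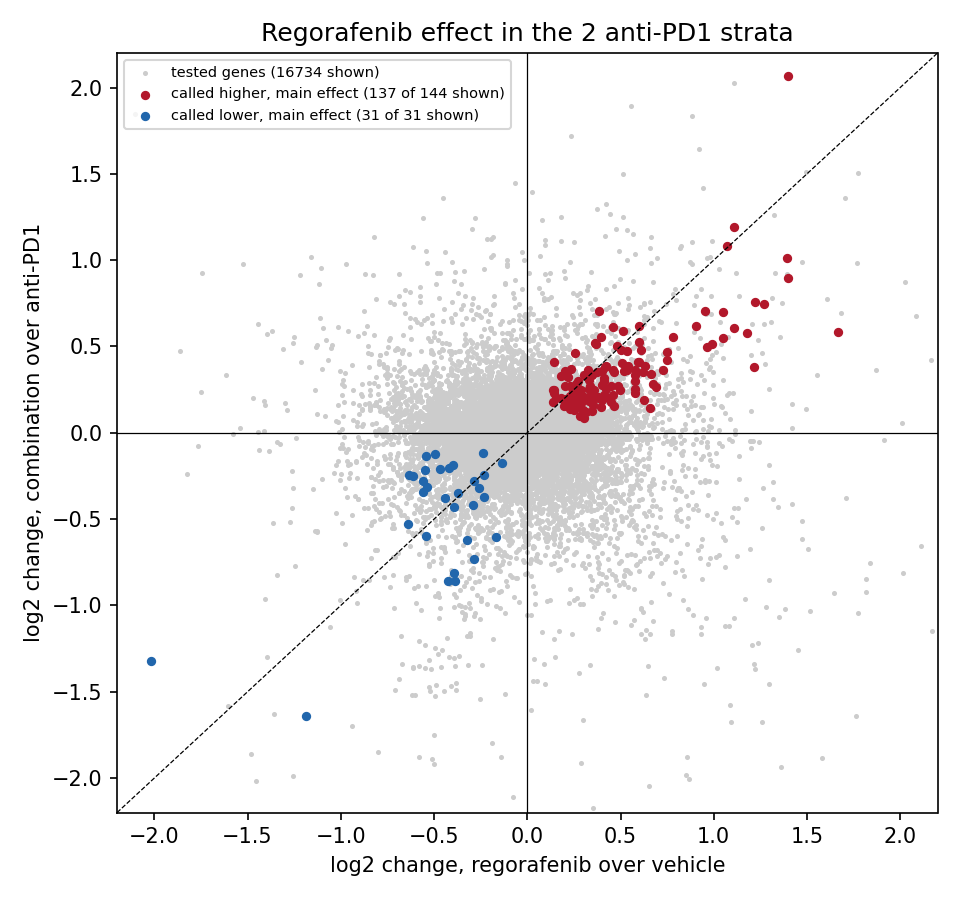
Log2 change of each tested gene for regorafenib over vehicle (x axis) and the combination over anti-PD1 (y axis), with genes called in the main effect in red (higher, 137 of 144 shown) and blue (lower, 31). Grey genes fill all 4 quadrants, while the called genes lie in the quadrants of equal sign; 63 tested genes lie outside the axes.

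Called genes that act at the cell surface or in cell junctions included Myof, Gjb2, Dsc2 and Itga6, picked as single genes and not as a tested group. Myof, a ferlin of membrane repair on chr19:37899036-38043577 (GRCm38, whole gene), had 116, 118, 109 and 127 CPM on regorafenib and 92.9, 110.3, 96.3, 106 and 106 CPM on the combination, against 79.4, 76.0 and 82.8 CPM on anti-PD1 and 86.0, 89.9, 82.8 and 83.6 CPM on vehicle. All 9 libraries with regorafenib were above all 7 without. Such a complete separation occurred for 35 tested genes upwards (0.208%) and 7 downwards (0.0417%), and 34 of these 42 were called. Myof rose by 0.41 ± 0.045 (log2 ± SE, adjusted p = 0.000559), by 0.37 with anti-PD1 and by 0.46 without. It was called in all 16 runs that leave out a library.

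Gjb2, the gap junction protein connexin 26, ran from 575 to 849 CPM (median 709.6) with regorafenib and from 389 to 535 CPM (median 463) without it. The groups did not overlap, and the change was 0.55 ± 0.083 (adjusted p = 0.00867). Further connexins rose with overlap of the groups: Gjb6, connexin 30, by 0.30 (adjusted p = 0.0356) and Gja1, connexin 43, by 0.26 (adjusted p = 0.0494). Dsc2, a desmosomal cadherin, had 538 to 667 CPM with regorafenib and 409 to 523 CPM without, with no overlap, and rose by 0.37 ± 0.064 (adjusted p = 0.0192).

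Of the integrin genes, Itga6 and Itgav are given as single genes and not as a tested family. Itga6, the alpha 6 chain that anchors basal cells in hemidesmosomes, had 174 to 285 CPM with regorafenib and 131 to 166 CPM without, with no overlap (0.46 ± 0.087, adjusted p = 0.0268). Itgav, the alpha V chain that binds matrix proteins with an RGD motif, had 76.1 to 88.0 CPM with regorafenib and 60.2 to 72.9 CPM without, again apart (0.23 ± 0.043, adjusted p = 0.0254). Tmprss11b, a membrane serine protease of squamous epithelium, had 104 to 174 CPM with regorafenib and 58.0 to 92.6 CPM without, also apart (0.77 ± 0.121, adjusted p = 0.0123). The serine protease inhibitor Spink5 overlapped between the groups and rose by 0.32 (adjusted p = 0.0257). The genes of this group other than Myof, Gjb2 and Itga6 were chosen after their values were seen.

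**Figure D3:**
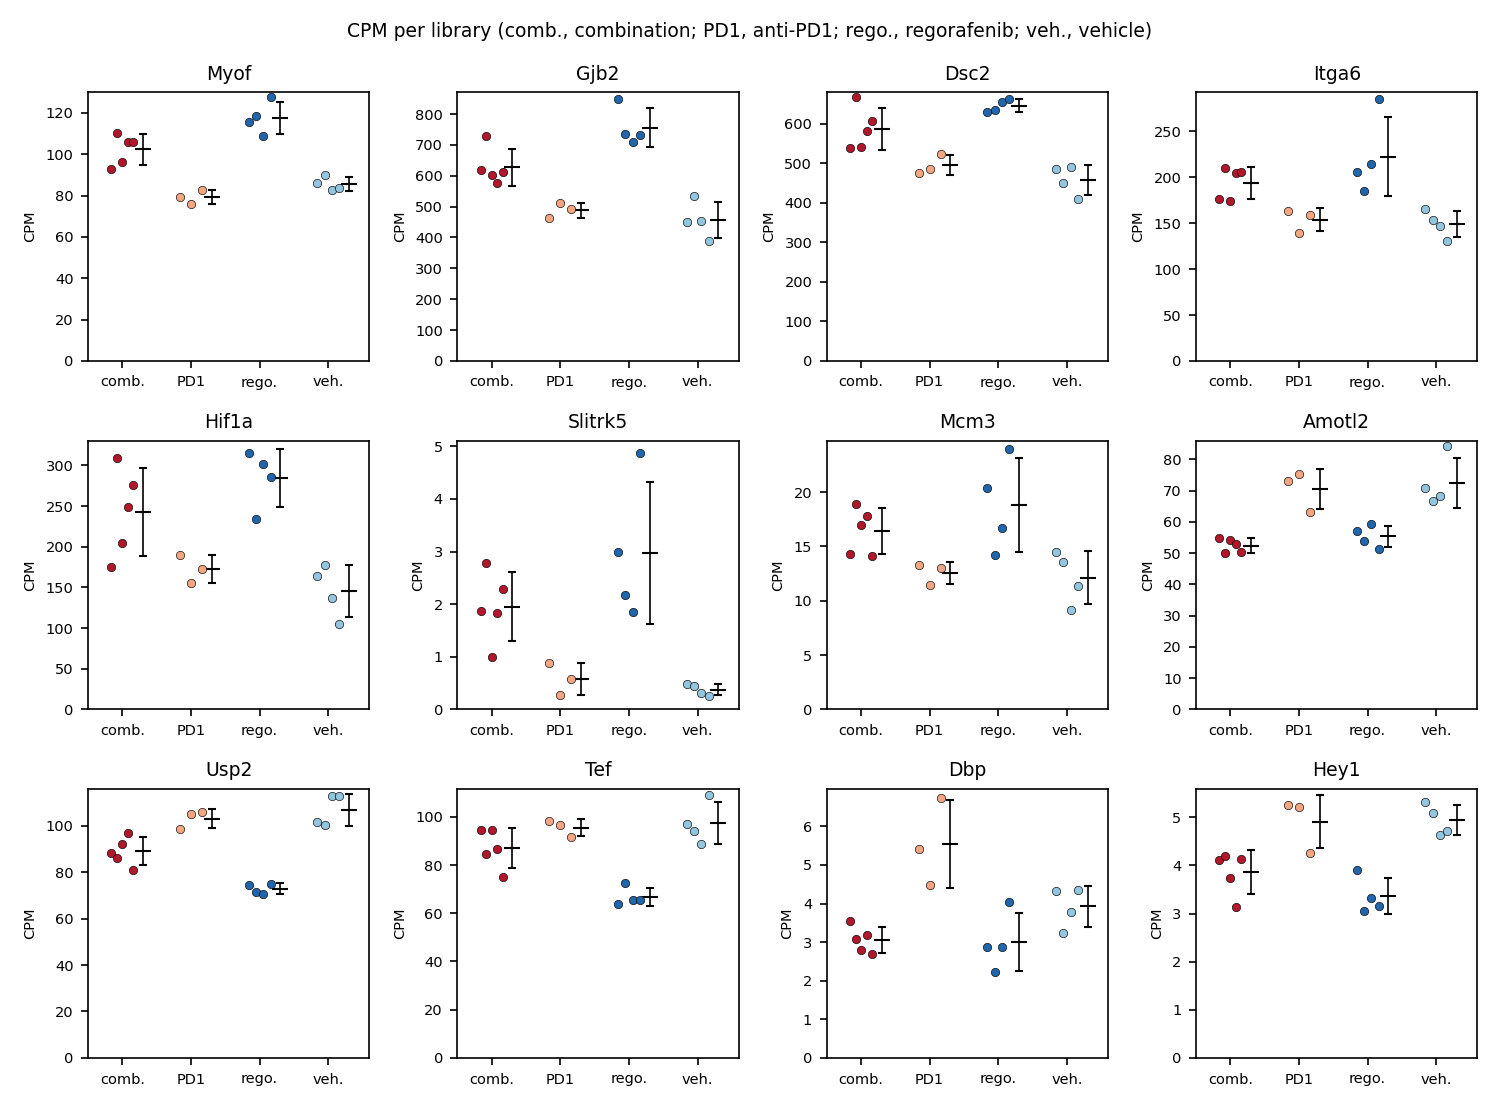
CPM of 12 genes in each library, with the mean and SD of each group as a cross and bar, for the combination and anti-PD1 (red, orange) and for regorafenib and vehicle (dark and light blue). In the panels of Myof, Gjb2, Dsc2, Itga6 and Slitrk5 every library with regorafenib lies above every library without it, and in those of Amotl2, Usp2 and Hey1 every one lies below.

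Among basal keratinocyte genes as a list, 1 of 14 tested was called, Itga6 (0.857% of all tested genes were called higher). Of the 14, 12 had a positive estimate. The median log2 change was 0.25, against -0.00335 for all tested genes. Krt14, the basal keratin, did not pass, with 1999 to 4649.8 CPM with regorafenib and 1505 to 2643 CPM without (0.55 ± 0.158, adjusted p = 0.0909). Of the 11 wound and hyperproliferative keratinocyte genes, 0 were called in edgeR, and the median was 0.54 (0.314 at the lowest over the alternatives). It was 0.21 with anti-PD1 and 0.89 without, where 5 of the 11 were called higher (4.15% of all tested genes). The mean log2 CPM of that list was 6.67 in vehicle 4 and 8.50 to 9.23 in the other vehicle libraries, and without vehicle 4 the medians were 0.453 in the main effect and 0.693 without anti-PD1. Its members Krt16 and Krt6a had log2 estimates of 0.56 (adjusted p = 0.086) and 0.36 (adjusted p = 0.071). The 14 suprabasal and cornified genes had a median of 0.03 and 0 calls.

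Some genes of DNA replication and recombination were among the calls, but the fixed lists gave 1 call of 16 for S phase and 0 of 17 for mitosis in edgeR. Of all tested genes, 0.857% were called higher. Without anti-PD1, 6 of the 16 and 5 of the 17 were called higher, as were 4.15% of all tested genes. Brca1, which directs repair of double-strand breaks by recombination, had 6.43, 6.47, 6.20 and 8.08 CPM on regorafenib and 5.29, 6.81, 5.91, 7.03 and 5.89 CPM on the combination, against 4.18, 4.15 and 4.72 CPM on anti-PD1 and 4.77, 5.14, 4.53 and 5.04 CPM on vehicle. Every library with regorafenib was above every library without it. The change was 0.49 ± 0.080 (adjusted p = 0.0133), with 0.50 with anti-PD1 and 0.48 without, and it was called in all 16 runs that leave out a library. Its partner Bard1 rose by 0.59 (adjusted p = 0.0475), the helicase Brip1 by 0.47 (adjusted p = 0.0356), and the recombination motor Rad54l by 0.51 (adjusted p = 0.0401), each with overlap of the groups. Mre11a, the nuclease of the break-sensing MRN complex, had 18.7 to 22.7 CPM with regorafenib and 16.4 to 18.6 CPM without, with no overlap (0.25, adjusted p = 0.0336).

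The checkpoint adaptors Topbp1 and Clspn rose by 0.22 and 0.41 (adjusted p = 0.0336 and 0.0401). The DNA methyltransferase Dnmt1, its partner Uhrf1 and the chromatin remodeller Hells rose by 0.19, 0.45 and 0.49 (adjusted p = 0.0482, 0.0401 and 0.0431). Rbl1, the pocket protein p107 that binds E2F factors, had 22.0 to 26.7 CPM with regorafenib and 17.9 to 21.9 CPM without, with no overlap (0.32, adjusted p = 0.0215). These genes were picked from the called genes after their values were seen, and most were called in few of the runs that leave out a library: Dnmt1 in 1 of 16, Bard1 and Hells in 3, Topbp1, Uhrf1 and Mre11a in 6, and Rbl1 in 15.

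The list of MCM helicase and S phase genes had 16 tested members, all with a positive estimate in both strata, and 1 call. This was Mcm3, a subunit of the replicative helicase, with 20.4, 14.2, 16.7 and 24.0 CPM on regorafenib and 14.3, 18.9, 17, 17.8 and 14.2 CPM on the combination, against 13.3, 11.4 and 13.0 CPM on anti-PD1 and 14.5, 13.6, 9.12 and 11.4 CPM on vehicle. The groups overlapped slightly, and the change was 0.51 ± 0.119 (adjusted p = 0.0494), called in 2 of the 16 runs that leave out a library. The list's median log2 change was 0.34, with 0.20 with anti-PD1 and 0.38 without, and Mcm2 and Mcm5 came next (0.45 and 0.48, adjusted p = 0.051 and 0.053). Of 17 mitosis genes 0 were called and 17 had a positive estimate (median 0.22, with 0.05 with anti-PD1 and 0.33 without). In 13 of the 17 the sign was the same in both strata. Mki67, the proliferation marker, had 85.7 to 126 CPM with regorafenib and 78.4 to 103 CPM without (0.22 ± 0.076, adjusted p = 0.134).

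The promoter of Mcm3 is shown because it carries both E2F letters searched. It covers chr1:20820263-20820562 on the minus strand (RefSeq, GRCm38.p6), from 250 bases before to 50 after the gene's start, with matches in capitals.
Mcm3: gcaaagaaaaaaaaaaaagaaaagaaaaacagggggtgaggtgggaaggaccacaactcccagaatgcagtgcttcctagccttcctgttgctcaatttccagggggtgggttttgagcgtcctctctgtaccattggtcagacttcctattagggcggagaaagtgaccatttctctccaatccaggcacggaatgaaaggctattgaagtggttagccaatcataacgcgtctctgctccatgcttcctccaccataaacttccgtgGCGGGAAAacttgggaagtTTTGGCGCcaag
The letters GCGGGAAA and TTTGGCGC, searched on both strands, start at positions 20 and 39 counted from the start of the gene. Such a match was present in 7 of the 14 S phase genes with a promoter in the table (50%), in 0 of 15 mitosis genes and in 8 of 102 genes called higher (7.84%), against 1.8% of all genes. A match describes the letters of this window and is not a binding site.

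Single genes of hypoxia and of sugar and redox metabolism were called, 2 of 18 in the glycolysis and hypoxia list and 1 of 10 among NRF2 targets. Of all tested genes, 0.857% were called higher. Hif1a, the oxygen-regulated transcription factor subunit on chr12:73901375-73947530, had 315, 234, 302 and 286 CPM on regorafenib and 175, 309, 205, 249 and 276 CPM on the combination, against 189, 155 and 172 CPM on anti-PD1 and 164, 177, 136 and 106 CPM on vehicle. The combination library at 175 CPM lay within the range of the libraries without regorafenib, and the other 8 lay above it. The change was 0.73 ± 0.136 (adjusted p = 0.0254), with 0.50 with anti-PD1 and 0.96 without, and the interaction did not pass (adjusted p = 0.359). Car12, a membrane carbonic anhydrase, had 159.5 to 252 CPM with regorafenib and 129.5 to 173 CPM without, overlapping (0.48, adjusted p = 0.0254).

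The calls of the glycolysis and hypoxia list were Pgam1 and Pfkp. The phosphoglycerate mutase Pgam1 rose by 0.41 ± 0.079 (adjusted p = 0.0297), with 0.14 with anti-PD1 and 0.66 without, and its interaction passed (adjusted p = 0.0253). The platelet phosphofructokinase Pfkp rose by 0.34 ± 0.068 (adjusted p = 0.0322). The glucose transporter Slc2a1 did not pass: it had 96.5 to 186 CPM with regorafenib and 69.6 to 110.3 CPM without (0.55 ± 0.132, adjusted p = 0.055), with 0.15 with anti-PD1 (adjusted p = 0.74) and 0.94 without (adjusted p = 0.00207). The list's median was 0.07, and without anti-PD1 6 of its 18 genes were called higher (4.15% of all tested genes). The called NRF2 target was Gclm, the modifier subunit of the first enzyme of glutathione synthesis (0.44 ± 0.078, adjusted p = 0.0215, median of the list 0.09). Threonine dehydrogenase, Tdh, and argininosuccinate synthase, Ass1, rose by 0.81 and 0.31 (adjusted p = 0.0322 and 0.0425), and Lrat, which esterifies retinol for storage, by 1.13 (adjusted p = 0.0401).

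Slitrk5 and Edn2, both low in level, had the largest rises after the stomach and pancreas genes described further on. This ranking is among called genes with a full symbol and on average 1 CPM or more in some group. Slitrk5, a transmembrane protein best known from neurons, on chr14:111675097-111683141, had 2.98, 2.17, 1.86 and 4.88 CPM on regorafenib and 1.86, 2.78, 1.00, 1.83 and 2.29 CPM on the combination, against 0.876, 0.277 and 0.584 CPM on anti-PD1 and 0.477, 0.454, 0.320 and 0.260 CPM on vehicle. The groups did not overlap, and the change was 2.35 ± 0.314 (adjusted p = 0.00344). It was called under all 27 alternatives, the fold threshold of 1.2 and the muscle covariate included. Edn2, the vessel-constricting peptide endothelin 2, had 0.723 to 2.4 CPM with regorafenib and 0.225 to 0.715 CPM without, narrowly apart (1.68 ± 0.285, adjusted p = 0.0189).

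Tacr1, the receptor of substance P, had 0.781 to 2.22 CPM with regorafenib and 0.519 to 1.15 CPM without, overlapping (1.15 ± 0.198, adjusted p = 0.0205). Siah3, of a family of ubiquitin ligases, rose by 1.16 ± 0.269 (adjusted p = 0.0494), called in 2 of the 16 runs that leave out a library. Adarb1, an enzyme that edits adenosine in RNA, had 83.1 to 107 CPM with regorafenib and 63.8 to 79.8 CPM without, apart and called in all 16 of those runs (0.36 ± 0.058, adjusted p = 0.0126). Pappa, a protease that frees insulin-like growth factors, did not pass in the main effect (0.55 ± 0.129, adjusted p = 0.0512) and had the smallest p of all genes with anti-PD1 (0.94, adjusted p = 0.0525, against 0.20 without).

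Genes that fell included Amotl2, Hey1 and Egfl7. Amotl2, an angiomotin that binds the Hippo effector YAP, on chr9:102716672-102733418, had 49.9 to 59.2 CPM (median 53.8) with regorafenib and 63.3 to 84.3 CPM (median 71.0) without. The groups did not overlap, the change was -0.41 ± 0.053 (adjusted p = 0.00296) and its size was alike in both strata (-0.43 with anti-PD1 and -0.39 without). Hey1, a transcriptional repressor induced by Notch, had 3.06 to 4.20 CPM with regorafenib and 4.27 to 5.33 CPM without, also apart (-0.46 ± 0.088, adjusted p = 0.0297). Egfl7, a protein secreted by endothelial cells, had 16.2 to 22.8 CPM with regorafenib and 22.0 to 33.6 CPM without, overlapping at the edge (-0.41 ± 0.093, adjusted p = 0.047).

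The phosphatases Dusp1 and Dusp8, which switch off MAP kinases, fell by 0.50 and 0.30 (adjusted p = 0.0297 and 0.0401). The estimate of Dusp1 was -0.73 with anti-PD1 and -0.29 without, and the interaction did not pass (adjusted p = 0.189). Ptafr, the receptor of platelet-activating factor, fell by 0.64 (adjusted p = 0.0471) and Hs3st5, which sulfates heparan chains, by 0.60 (adjusted p = 0.0356). The homeobox gene Pknox2, the kinase-like genes Stk40 and Ulk4, the zinc finger gene Zfp46 and the scaffold gene Mpp2 fell by 0.42, 0.28, 0.57, 0.24 and 0.47 (adjusted p = 0.0123, 0.0192, 0.0401, 0.0205 and 0.0356). All of these overlapped between the groups.

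Of 14 circadian clock genes tested, 3 were called, all lower: Tef, Dbp and Cry2 (0.185% of all tested genes were called lower). The clock is a feedback loop in which CLOCK and ARNTL (BMAL1) activate genes through E-box letters, and the PER and CRY proteins, among those genes, repress them. Tef, a PAR-domain transcription factor of clock output, had 64.0, 72.5, 65.4 and 65.4 CPM on regorafenib and 94.6, 84.7, 94.4, 86.8 and 75.0 CPM on the combination, against 98.5, 96.7 and 91.6 CPM on anti-PD1 and 97.1, 94.2, 88.6 and 109 CPM on vehicle. The 4 regorafenib-alone libraries were the lowest, and the combination overlapped with the libraries without the drug. The change was -0.35 ± 0.073 (adjusted p = 0.0401), with -0.13 with anti-PD1 and -0.54 without.

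The promoters of Tef are shown because both hold an E-box. They lie at chr15:81802423-81802722 and chr15:81811164-81811463 on the plus strand (RefSeq, GRCm38.p6), 1 for each of 2 annotated starts, with CACGTG in capitals.
Tef, upstream start: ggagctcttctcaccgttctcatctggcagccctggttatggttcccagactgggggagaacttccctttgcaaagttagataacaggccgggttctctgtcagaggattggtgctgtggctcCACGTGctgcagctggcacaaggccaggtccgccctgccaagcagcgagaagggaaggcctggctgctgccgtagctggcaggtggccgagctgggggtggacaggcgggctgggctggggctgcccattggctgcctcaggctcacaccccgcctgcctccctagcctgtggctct
Tef, downstream start: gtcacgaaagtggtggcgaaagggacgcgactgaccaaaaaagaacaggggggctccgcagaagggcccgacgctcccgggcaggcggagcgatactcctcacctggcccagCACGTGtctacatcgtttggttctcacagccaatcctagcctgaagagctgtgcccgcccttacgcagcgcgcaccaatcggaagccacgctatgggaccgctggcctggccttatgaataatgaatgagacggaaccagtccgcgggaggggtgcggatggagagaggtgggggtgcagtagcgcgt
The letters start at positions -127 and -138 from the start of the gene model. CACGTG, the same on both strands, was in 5 of 13 clock genes with a promoter in the table, against 8.09% of all genes. The 5 were Bhlhe41, Ciart, Cry1, Per1 and Tef, and the called clock genes Dbp and Cry2 were not among them. Among genes called lower CACGTG was in 2 of 23, Tef and Dusp1 (8.7%), and among genes called higher in 11 of 102 (10.8%). These matches describe letters and do not show binding.

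Dbp, a second PAR-domain factor, had 2.22 to 4.04 CPM with regorafenib and 3.23 to 6.74 CPM without, overlapping (-0.62 ± 0.135, adjusted p = 0.0401), with -0.86 with anti-PD1 and -0.39 without. The repressor Cry2 had 23.7 to 30.0 CPM with regorafenib and 28.0 to 39.0 CPM without (-0.32 ± 0.070, adjusted p = 0.0421). Of the 16 runs that leave out a library, Tef was called in 3 and Dbp and Cry2 in 4 each. Of the 14 genes, 12 had a negative estimate, with a median of -0.28 (-0.13 with anti-PD1 and -0.32 without). In 8 of the 14 the sign was the same in both strata. Per3 and Nr1d1 did not pass (-0.32 and -0.47, adjusted p = 0.070 and 0.141), and the activators Clock and Arntl had estimates of 0.06 and 0.04. The mean log2 CPM of the 14 genes was 4.26 to 4.46 in the 9 libraries with regorafenib and 4.53 to 4.69 in the 7 without, with no overlap. The list's median log2 change stayed negative under all 27 alternatives. These reuse the same libraries, and the medians of most other lists kept their sign too. Usp2, a deubiquitinase whose transcript cycles with the clock in mouse tissues, had 70.4 to 97.0 CPM with regorafenib and 98.5 to 113 CPM without, with no overlap (-0.39 ± 0.059, adjusted p = 0.00867), and was called in all 16 of those runs. The labels used here give no hour at which tumours were taken.

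**Figure D4:**
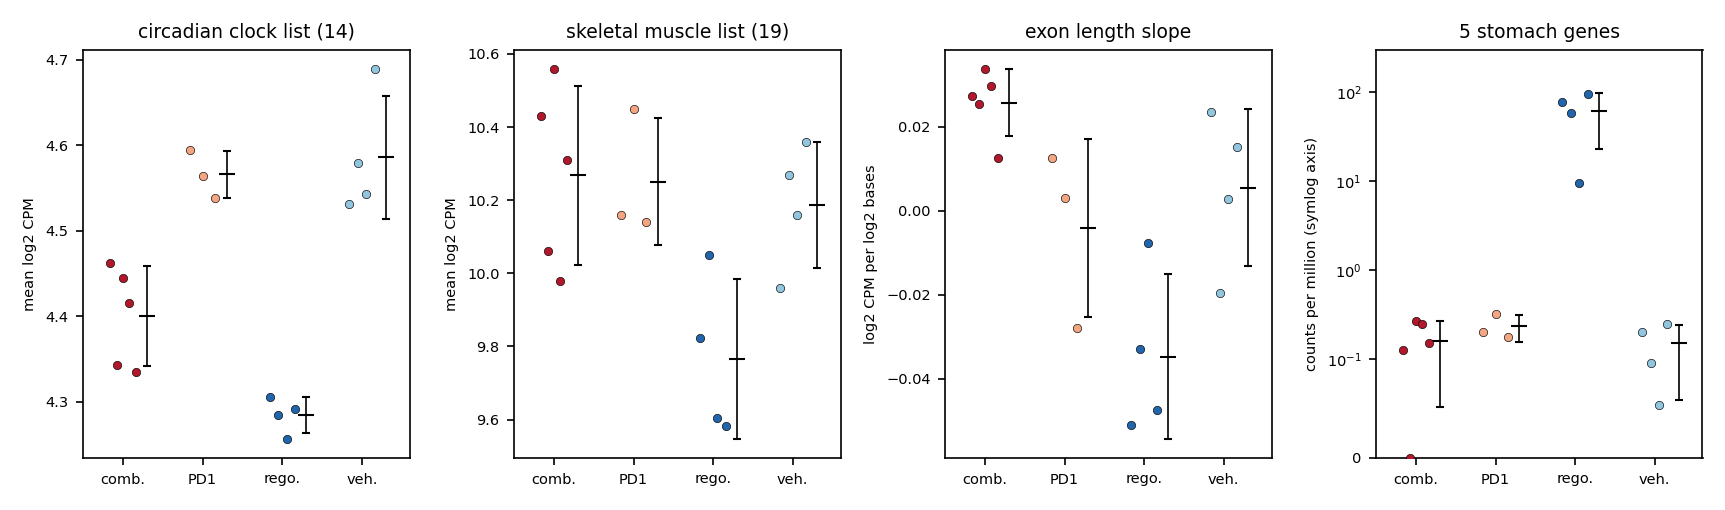
Values of each library, with group mean and SD, for the combination, anti-PD1, regorafenib and vehicle: mean log2 CPM of 14 clock genes and of 19 skeletal muscle genes, the slope of the library's log2 CPM on log2 exon length, and the 5 called stomach and pancreas genes in CPM of the library total on a symmetric log axis. The clock score is lower in all 9 libraries with regorafenib, while the lowest muscle scores, the lowest slopes and the highest stomach values are those of regorafenib-alone libraries.

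Some of the falling genes are muscle genes. Ryr2 had 0 to 0.335 CPM with regorafenib and 0.353 to 0.681 CPM without (-1.60 ± 0.332, adjusted p = 0.0356). Ampd1, the muscle AMP deaminase, Dmpk, the myotonic dystrophy kinase, and Srpk3, a muscle splicing kinase, fell by 0.34, 0.32 and 0.43 (adjusted p = 0.0356, 0.0392 and 0.0356). Slc8a3, a sodium-calcium exchanger, fell by 0.44 (adjusted p = 0.0354). Slc25a25, a mitochondrial carrier of ATP, fell by 0.38 (adjusted p = 0.0401). Ryr2, Ampd1, Dmpk and Srpk3 were chosen after their values were seen, as were Hif1a, Car12, Tdh, Ass1, Lrat, Tacr1, Adarb1, Dusp8 and Cry2.

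The lists of skeletal muscle genes held no call of the main effect in edgeR, neither among 19 sarcomere genes nor among 15 genes of calcium handling and the membrane complex, with medians of -0.23 and -0.24. Without anti-PD1, 9 of the 19 and 12 of the 15 were called lower, as were 4.06% of all tested genes. The list medians were -0.42 and -0.47 without anti-PD1 and -0.03 and -0.01 with it. The mean log2 CPM of the sarcomere list was 9.58 to 10.05 on regorafenib and 9.98 to 10.56 on the combination, against 10.14 to 10.45 on anti-PD1 and 9.96 to 10.36 on vehicle. With this score as a covariate, 8 genes were called for regorafenib against vehicle in place of 1379, while the median log2 change of those 1379 in their reported direction was 0.282, against 0.402 as reported.

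The kinases that regorafenib inhibits did not change detectably at the RNA level in the main effect. Of 17 tested, 0 were called in edgeR (median -0.08). Without anti-PD1, 1 of the 17 was called higher and 3 lower, where 8.21% of all tested genes were called. The median was -0.15 without anti-PD1 and 0.02 with it. Kdr, the main VEGF receptor, had 32.9 to 56.6 CPM with regorafenib and 32.3 to 51.2 CPM without (-0.08 ± 0.123, adjusted p = 0.762). Pdgfrb, the PDGF receptor of pericytes, had 22.2 to 44.1 CPM with regorafenib and 30.3 to 38.8 CPM without (-0.26 ± 0.108, adjusted p = 0.21), with an estimate of 0.01 with anti-PD1 and -0.51 without. Of 15 blood endothelial genes 1 was called, Egfl7 (0.185% of all tested genes were called lower), and 11 had a negative estimate (median -0.15). Cldn5, an endothelial tight junction protein, did not pass (-0.61, adjusted p = 0.075). The MAP kinase feedback gene Dusp6 had 0.23 in the main effect (adjusted p = 0.34), -0.19 with anti-PD1 and 0.65 without, and its interaction passed (adjusted p = 0.0413). Klf4 and Creb1, transcription factors, had 0.03 and 0.03 (adjusted p = 0.877 and 0.819).

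Few immune genes were called. Cxcr6, a chemokine receptor of tissue T cells, had 2.60 to 4.68 CPM with regorafenib and 1.09 to 2.27 CPM without, with no overlap (0.83 ± 0.154, adjusted p = 0.0257). It was chosen after its values were seen and was called in 13 of the 16 runs that leave out a library.

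None of the 12 lists of immune cells, antigen presentation and interferon genes had a called member in edgeR's main effect, and medians are given as descriptions. The 7 tested genes of cytotoxic T and NK cells all had positive estimates (median 0.67, with 0.31 with anti-PD1 and 1.05 without). Of the 7, 4 were called higher without anti-PD1 (4.15% of all tested genes). Cd8a, the co-receptor of cytotoxic T cells, had 0.349 to 1.78 CPM with regorafenib and 0.252 to 0.809 CPM without (1.16 ± 0.313, adjusted p = 0.0795). For the 18 interferon-inducible genes the median was -0.52, with -0.70 with anti-PD1 and -0.16 without, and Cxcl10, a chemokine induced by interferon gamma, ran from 0.631 to 9.49 CPM with regorafenib and from 0.755 to 19.6 CPM without (-0.90 ± 0.454, adjusted p = 0.286). For 14 genes of M2-type macrophages the median was -0.45, and the haptoglobin scavenger receptor Cd163 had 7.10 to 22.0 CPM with regorafenib and 14.1 to 22.8 CPM without (-0.54 ± 0.160, adjusted p = 0.0944), with -0.07 with anti-PD1 and -0.99 without. The regulatory T cell factor Foxp3 and the PD1 ligand Cd274 had -0.05 and -0.24 (adjusted p = 0.941 and 0.452).

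**Figure D5:**
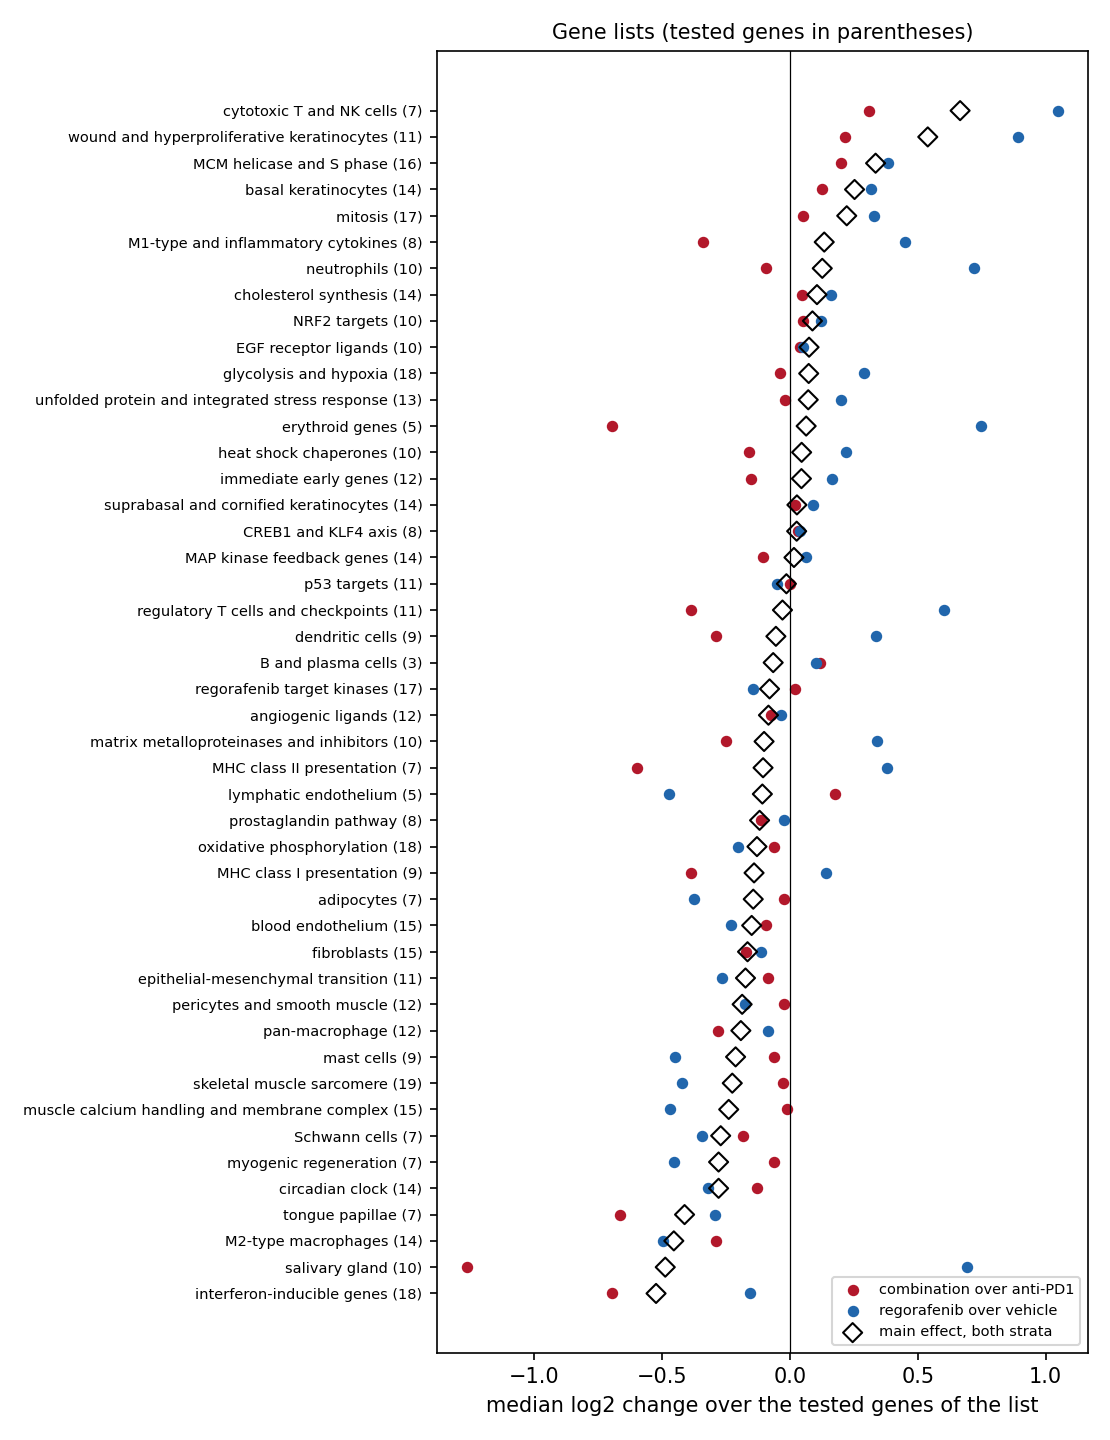
Median log2 change over the tested genes of each of 46 lists for the combination over anti-PD1 (red), regorafenib over vehicle (blue) and the main effect (open diamonds), with the number of tested genes in parentheses; the stomach and pancreas list lies off the scale and is left out. In the lists of skeletal muscle the blue points lie left of the red ones, and for regulatory T cells, neutrophils, MHC class II and erythroid genes the points lie on opposite sides of 0.

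Among called genes with a full symbol and on average 1 CPM or more in some group, the 5 largest fold changes were those of stomach and pancreas genes. These were high in the regorafenib-alone group. Pgc, the stomach protease precursor pepsinogen C on chr17:47726842-47734482, had 41.2, 38.3, 5.47 and 51.9 CPM on regorafenib and 0 CPM in all 5 combination libraries, against 0, 0 and 0.0449 CPM on anti-PD1 and 0.119, 0.0504, 0 and 0.0519 CPM on vehicle. The additive fit called it higher (adjusted p = 5.7e-05), although no combination library held a count. Clps, Pla2g1b, Atp4a and Gkn2, for colipase, a pancreatic phospholipase, the acid pump and a gastric mucosa protein, were called too. Gkn1, Atp4b and Mucl3, also of the list, did not pass in the main effect, with 7 to 554, 6 to 53 and 3 to 136 counts on regorafenib. In the other groups of the comparison they had 0 to 8, 0 and 0 to 5 counts. Without anti-PD1, 9 of the 12 tested members of the list were called higher (4.15% of all tested genes). Tff2, a trefoil peptide of mucus, was high in some libraries of every group and did not pass (-0.23 ± 1.85, adjusted p = 0.963). It had 20 to 11290 counts on regorafenib and 1 to 11994 on the combination, against 1 to 22364 on anti-PD1 and 0 to 5673 on vehicle. The 5 called genes together held 78.7, 59.2, 9.48 and 96.8 CPM of the unscaled library total on regorafenib. They held 0 to 0.271 on the combination, 0.175 to 0.325 on anti-PD1 and 0.0531 to 0.252 on vehicle. Pla2g1b had 143, 121, 12 and 119 counts on regorafenib and 0, 0, 0, 1 and 1 on the combination. It had 2, 0 and 0 counts on anti-PD1 and 0 in each vehicle library. Since the genes passed the filter on low counts through the regorafenib-alone libraries, their calls are no result across the strata, and 170 of the 175 called genes, 139 of them higher, are not among them.

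Of the 123 genes called in the interaction, 2 were among the 19 sarcomere genes and 4 among the 15 genes of muscle calcium handling and the membrane complex (Ryr1, Trdn, Sgcd and Dmd). The share called over all tested genes was 0.732%. Dmd, the membrane protein dystrophin, had 57.9, 60.7, 56.5 and 50.9 CPM on regorafenib, against 94.4, 90.0, 90.1 and 96.0 CPM on vehicle. It had 93.2, 100.1, 107, 89.1 and 87.3 CPM on the combination, against 76.5, 88.5 and 69.4 CPM on anti-PD1. The direction turned between the strata (0.29 with anti-PD1, -0.71 without), the interaction was 1.00 (adjusted p = 0.0035) and the main effect was -0.24 (adjusted p = 0.349). The muscle calcium channel Ryr1, the sarcoglycan Sgcd, the myosin phosphatase subunit Ppp1r12b and the lipid transfer genes Vps13a and Vps13c had interactions of 0.82, 1.47, 0.85, 0.59 and 0.82 (adjusted p = 0.0166, 0.0154, 0.00925, 0.0154 and 0.0122).

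The median exon length was 11850 bases for the 91 genes higher in the interaction and 3959 for all tested genes, while it was 5326.5 for the 144 genes higher in the main effect and 4807 for the 31 lower. The slope of a library's log2 CPM on log2 exon length was -0.051 to -0.008 on regorafenib and 0.013 to 0.034 on the combination, against -0.028 to 0.013 on anti-PD1 and -0.020 to 0.024 on vehicle. With this slope as a covariate, chosen after seeing the data, the main effect had 142 higher and 32 lower genes, of which 119 and 28 were among those reported, while regorafenib against vehicle and the interaction had 0 calls in edgeR, with median SEs of 0.129 against 0.0929 over the 1379 genes called without anti-PD1. The median log2 change of those 1379 in their reported direction was 0.341 with the slope and 0.402 as reported.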

How the data were processed

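RNA was measured in 19 oral tumour samples. Per the labels' protocols, a column kit that yields DNA and RNA was used, followed by stranded libraries of polyadenylated mRNA. Per the submitters' processing notes, the tools were cutadapt 2.4 and STAR 2.7.2a with the build GRCm38. How reads were assigned to genes, with which strand setting and which annotation, is not given in the sources used here, so overlapping, antisense and near-identical genes are uncertain. The deposited table holds raw counts per gene (55487 genes), with every column matched to a sample by name. Gene symbols, coordinates (1-based, whole gene) and exon lengths came from GENCODE on GRCm38 (55227 IDs matched), and promoters from RefSeq.

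Low genes were dropped by filterByExpr of edgeR, using the 4 groups, and libraries were scaled by TMM. Regorafenib and anti-PD1 were additive factors of a quasi-likelihood fit in edgeR 4.0.16, run in R 4.3.3 (13 residual degrees of freedom, common dispersion 0.0357), and another fit had 1 mean per group for the strata and their interaction. Two-sided p-values were corrected over the 16797 tested genes (Benjamini and Hochberg, threshold 0.05). CPM are of TMM-scaled counts, and scores are means of log2 CPM with a prior count of 2. Each SE is the size of the log2 change over the square root of F. The script was checked on simulated data.

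The comparison, the 47 gene lists (559 genes) and the rule for named genes were chosen with earlier results of these data known. Among called genes with a full symbol and on average 1 CPM or more in some group, the rule took the 8 largest changes and the 6 smallest p in each direction. It added up to 2 called members of each list, the 6 genes with the smallest p of each stratum and of the interaction (3 where none was called), and 14 fixed genes; 32 more were chosen after their values were seen. A few of these genes are left out of the text. Replicate numbers were not used as pairs, since 8 of 21 pairs of libraries with the same number correlated above 0.1 (range -0.457 to 0.546). Replicates differed beyond sampling noise in every pair, with a chi-square of 12.5 or more per degree of freedom. The alternatives were another scaling (RLE), no filter, DESeq2 1.42.0, limma 3.58.1 with sample weights, no second factor, all 19 libraries, each stratum alone, the replicate block, muscle and salivary scores as covariates, a fold threshold and each library left out; the exon length slope was added after seeing the data. Figures used matplotlib 3.10.9.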

Additional observations from a re-analysis of the deposited data

Results flagged for a closer look

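Single libraries stood apart within their group for 10 named genes, where the gap to the nearest other library was large beside the range of the group; 11 of 261 combinations of gene and group were flagged, and chance flags about 1 in 20. Gjb2 had 728.9 CPM in combination 2, Itgav 85.2 CPM in combination 2 and Vps13a 54.7 CPM in combination 2, each the highest of its group. Ulk4 had 0.781 CPM in combination 3, the lowest of its group. Pknox2 had 19.6 CPM in regorafenib 1, Brca1 8.08 CPM in regorafenib 4, Dusp6 39.4 CPM in regorafenib 4 and Vps13c 28.9 CPM in regorafenib 3. In the vehicle group, Mki67 had 102.7 CPM in vehicle 3, Vps13a 47.1 CPM in vehicle 1 and Gkn2 0.104 CPM in vehicle 4, where the other 3 had 0.

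The regorafenib effect differed between the strata for 123 genes, by edgeR's test of the interaction. Among the named genes the log2 interaction was positive for the muscle ubiquitin ligase subunit Asb15 (0.58), Ryr1 (0.82), Ppp1r12b (0.85), Sgcd (1.47), Dmd (1.00), Vps13c (0.82) and Vps13a (0.59), so the estimate was higher with anti-PD1. It was negative for Pgam1 (-0.52), Dusp6 (-0.84) and the RING ligase Rnf19b (-0.57). With the skeletal muscle score as a covariate 2 interactions were called, and with the exon length slope 0 (123 in the reported fit). The cause was not tested.

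Outside the comparison, the 5 called stomach and pancreas genes held 7.05 CPM of the library total in anti-CD40 library 1 and 0.417 in anti-CD40 library 2, above the highest vehicle value of 0.252. Those libraries entered no test here.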

How the results depend on the processing

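No called gene changed sign in a run that left out a library and tested it (173 of the 175 were tested in all 16). The choice of genes by adjusted p largely fixes this, and the counts moved. Leaving out each library gave 20 to 272 higher and 5 to 83 lower genes in the main effect, 418 to 1481 calls without anti-PD1, 0 to 6 with it (1 to 6 in 7 runs) and 6 to 214 in the interaction. Higher genes in the main effect numbered 43, 20 and 40 without vehicle 1, 3 and 4, 67, 21 and 272 without anti-PD1 1, 2 and 3, 233, 25 and 65 without combination 1, 2 and 4, and 21, 31, 47 and 57 without regorafenib 1, 2, 3 and 4. Lower genes numbered 7, 7 and 10 without vehicle 1, 3 and 4, 16, 5 and 83 without anti-PD1 1 to 3, 75, 7, 51, 18 and 15 without combination 1 to 5, and 5, 9, 14 and 13 without regorafenib 1 to 4. The interaction gave 57, 27 and 34 without vehicle 1, 3 and 4, 20, 214 and 6 without anti-PD1 1 to 3, 36 and 42 without combination 1 and 3, and 49, 82 and 26 without regorafenib 1, 2 and 4. The count for regorafenib against vehicle was 721 and 418 without vehicle 3 and 4, and 645, 824 and 447 without regorafenib 1, 3 and 4.

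Main effect counts (higher and lower) were 52 and 15 with no filter, 463 and 262 with DESeq2, 291 and 84 with limma and sample weights, 35 and 4 with no second factor, and 6 and 0 with a fold threshold of 1.2. RLE scaling (122 and 31), all 19 libraries (130 and 24) and the salivary gland score (170 and 41) stayed within 1.5 times. The replicate block gave 20 and 5, with 835 calls without anti-PD1 and 3 in the interaction; the numbers do not pair the samples, and 4 of the 16 libraries correlated best with their own number. With the muscle score as a covariate the counts were 6 and 3, with 8 calls without anti-PD1, 1 with it, 2 in the interaction and 25% of the genes called without anti-PD1 in the same direction. With the exon length slope there were 0 calls without anti-PD1, 2 with it and 0 in the interaction. Without anti-PD1, with it and in the interaction, DESeq2 gave 2090, 120 and 699 calls, and no filter gave 899 and 11 for the strata. The cause was not tested.

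Signs turned for Gkn2 with DESeq2 (-1.32), and for genes near 0: Kdr with the muscle score (0.00261), Creb1 with limma (-0.00147) and the muscle score (-0.0256), Klf4 with the muscle score (-0.023), and Vps13a with limma (-0.0111). Over the runs that leave out a library Klf4 ran from -0.0158 to 0.0708, Foxp3 from -0.227 to 0.159 and Vps13a from -0.0514 to 0.0492. List medians changed sign most often for erythroid genes (10 of 27 settings), regulatory T cells (9), B and plasma cells (6) and dendritic cells (5). The neutrophil, salivary gland, MAP kinase feedback and p53 target lists did so in 3 settings each, and some further lists in 1. Depth limits genes under 1 CPM such as Ryr2 and Cd8a, and groups of 3 to 5 libraries limit each stratum.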
